A study of Mus musculus with 8 samples.

Results

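Golgi glycosyltransferases are the enzymes that build sugar chains on proteins and lipids as these pass through the secretory pathway. The members described here are the genes whose symbols begin with Galnt, B3galt, B3gnt, B4galt, Mgat, Gcnt, St3gal, St6gal, St8sia or Fut, followed by a digit or by nac. The arrays named 62 such genes among 12393 in all, and where a gene had several probe sets of a single symbol, the one with the highest mean level stands for it. They were divided by gene symbol, as a guide to reaction, into 12 O-glycan, 7 N-glycan, 18 sialic acid, 7 fucose and 18 chain extension genes. The chain extension class also holds B3galt6 and B4galt7, of the proteoglycan linker, and B4galt6, a lactosylceramide synthase.

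All samples were ventral prostates, the tissue taken from FVB animals at 20 weeks of age. The 4 transgenic samples carried a transgene for constitutively active p110 beta, one of the catalytic subunits of PI3-kinase, and their prostates are labelled as mouse prostatic intraepithelial neoplasia (mPIN), a preinvasive lesion of the gland. The 4 wild type samples are labelled as normal, and the comparison asks how the lesion differs from normal prostate. The promoter that drives the transgene, the number of lines and whether each array is 1 animal are not given in the sources used here, so a p-value here reflects only how these arrays scatter, and some of that scatter may be technical.

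In mucin type O-glycosylation a GALNT enzyme attaches N-acetylgalactosamine (GalNAc) to serine or threonine, and other enzymes add galactose, branches and terminal sugars. N-glycans are transferred as a block in the endoplasmic reticulum, trimmed, and then branched in the Golgi by the MGAT enzymes. Sialyltransferases and fucosyltransferases cap both kinds of chain. The prostate is a secretory gland whose luminal cells export large amounts of glycoprotein.

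Values are log2 RMA values, for which each array's background was corrected, the arrays were quantile normalized and the probes of a set were combined. Array medians lay between 5.40 and 5.51, and a level below 5.40 is called dim here, since background can set it. Correlations between arrays lay between 0.967 and 0.996. Luminal keratin Krt8 lay at 11.38 ± 0.12 in transgenic and 10.90 ± 0.17 in wild type prostates, and the probasin gene Pbsn at 11.57 ± 0.45 and 12.85 ± 0.35 (SD, n = 4 each). These levels go with prostate epithelium, while the lobe named in the label was not tested. Of 9 genes listed for seminal vesicle and other prostate lobes, Pate4, Svs2, Svs3a, Svs4, Svs5 and Svs6 were dim in both groups. In that list 2 fell, Pbsn by 1.28 and Msmb by 1.72 (limma adjusted p = 0.00361 and 0.00592). The mean level of the list lay between 6.14 and 6.54 in transgenic prostates, against 6.65 to 6.98 in wild type prostates, and the part of this shift in the results was not tested.

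Of the 62 members, 7 rose, 1 fell and 54 did not pass the test, which was limma with Benjamini-Hochberg adjustment over all probe sets at a threshold of 0.05. Over all genes 5.99% rose and 4.98% fell. The genes that rose were Galnt7, Galnt4, St6galnac6, St6galnac4, Gcnt2, St3gal6 and Fut8, and the gene that fell was B4galt4. Past the threshold and beyond a 2-fold change there were 4 higher members and 1 lower, against 1.65% and 0.718% of all genes. The median log2 fold change, transgenic minus wild type, was 0.01 over the members and -0.04 over all genes. The number of members that rose was 4 without transgenic array 2 or 3, and also 4 without wild type array 3 or 4.

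**Figure D1:**
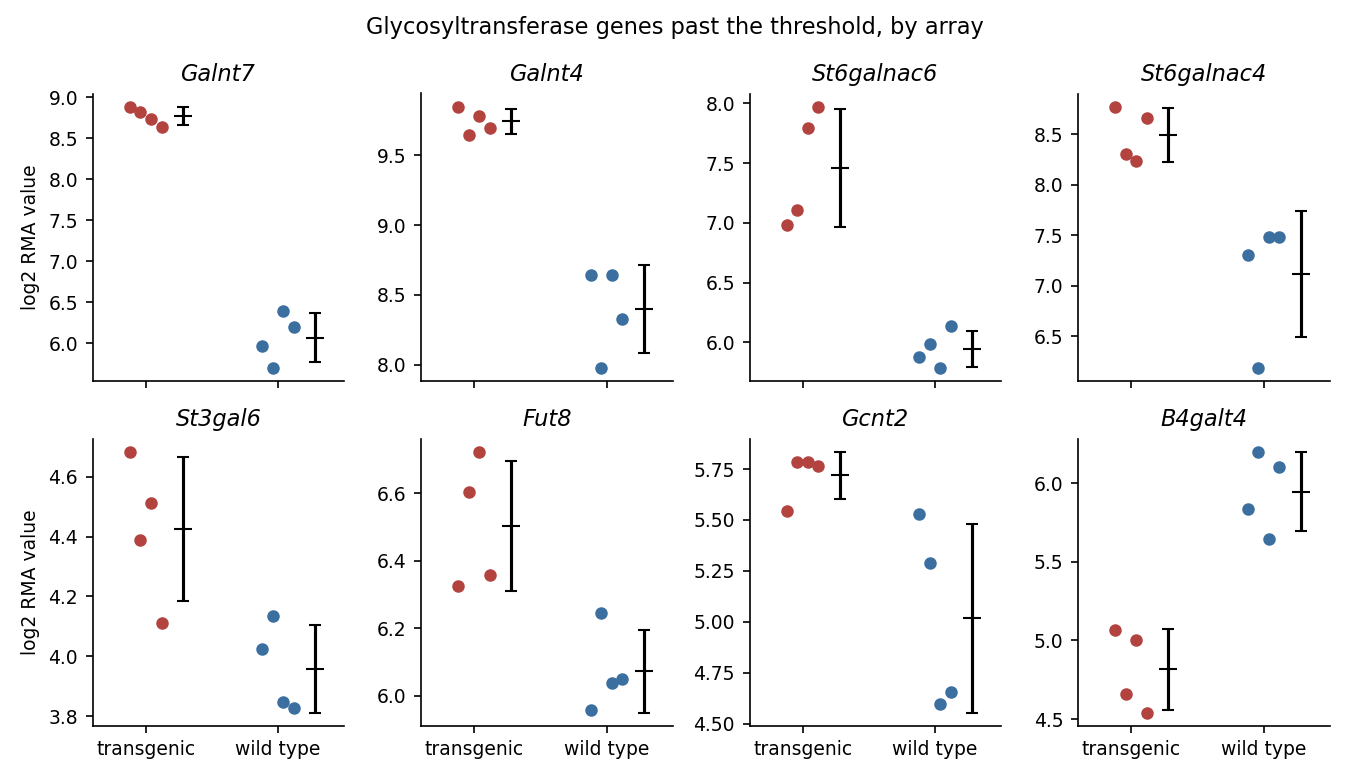
Log2 RMA values (vertical axes, each with its own range) of the 8 glycosyltransferase genes past the threshold, in the 4 transgenic arrays (left) and the 4 wild type arrays (right). Points are arrays and the bars at their right are the mean ± SD. Groups are apart for every gene but St3gal6, and for Gcnt2 they nearly touch.

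Upstream sequence is shown for the GALNT gene with the largest change, for the sialyltransferase gene that heads a tandem pair of genes, and for the 1 gene that fell. The stretches end at the base before the first annotated start of the gene and are given 5′ to 3′ on the gene's strand, from RefSeq tables of build GRCm38.p6. Capitals mark the GC box GGGCGG, which Sp1 family factors are known to bind, on either strand. Galnt7 lies at chr8:57653056-57653305 on the minus strand, St6galnac4 at chr2:32586828-32587077 on the plus strand and B4galt4 at chr16:38742009-38742219 on the plus strand.
Galnt7: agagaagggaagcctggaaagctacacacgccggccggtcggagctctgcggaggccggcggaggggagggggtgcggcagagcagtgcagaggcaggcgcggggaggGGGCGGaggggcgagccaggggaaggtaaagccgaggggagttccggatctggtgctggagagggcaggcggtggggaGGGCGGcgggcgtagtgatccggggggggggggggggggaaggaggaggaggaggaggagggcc
St6galnac4: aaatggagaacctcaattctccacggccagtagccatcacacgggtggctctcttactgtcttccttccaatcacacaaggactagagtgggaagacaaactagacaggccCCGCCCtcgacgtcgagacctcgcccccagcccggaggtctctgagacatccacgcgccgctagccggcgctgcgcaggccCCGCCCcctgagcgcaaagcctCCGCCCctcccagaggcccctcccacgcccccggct
B4galt4: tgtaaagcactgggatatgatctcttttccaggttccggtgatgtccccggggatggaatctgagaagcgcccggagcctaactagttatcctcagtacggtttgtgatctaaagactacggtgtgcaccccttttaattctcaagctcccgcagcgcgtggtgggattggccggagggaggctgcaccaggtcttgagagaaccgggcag

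The GC box occurred at 2 places in the Galnt7 stretch, 3 in that of St6galnac4 and 0 in the 211 bases of B4galt4. Of all 32851 promoter windows of 250 bases in the table, 32.7% held it at least once, so its presence is common. The full window of B4galt4, which runs past its first annotated start, held 1. G and C made up 73.6%, 65.2% and 55.0% of the bases of Galnt7, St6galnac4 and B4galt4. Of 4 other motifs searched on both strands, the E-box CACGTG, the forkhead motif TGTTTAC, the androgen receptor motif AGAACA and the ETS motif CCGGAAGT, none occurred in these stretches. All windows held them at 6.02%, 3.17%, 16.1% and 2.88%. The table held a window for 44 of the 62 members.

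The GALNT family held the member with the largest change, Galnt7. Among 9 GALNT genes 2 rose, none fell and 7 missed the threshold. The log2 fold change was positive for all 9, and the median was 0.32. Of all 12393 genes, 5158 had a positive and 7235 a negative log2 fold change. Galnt7 encodes an enzyme that prefers peptides which already carry GalNAc, and so acts after other GALNT enzymes. Its values were 8.89, 8.82, 8.74 and 8.63 in transgenic prostates, against 5.97, 5.70, 6.40 and 6.20 in wild type prostates. Every transgenic array lay above every wild type array by over 2 log2 units. The log2 fold change was 2.70 ± 0.14 (SE), a level 6.50-fold higher in transgenic prostates (limma adjusted p = 6.40e-07). All 3 Galnt7 probe sets passed, at 2.70, 3.33 and 2.20, and the wild type mean of the second was dim, so that its fold is approximate.

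Galnt4, whose enzyme also favours partly glycosylated peptides, was the other GALNT gene that rose. It was at 9.85, 9.64, 9.78 and 9.70 in transgenic prostates, against 8.64, 7.98, 8.64 and 8.33 in wild type prostates. The groups did not overlap, and the transgenic arrays lay close together, with an SD of 0.09 against 0.32 in wild type. The log2 fold change was 1.34 ± 0.15 (SE), or 2.54-fold (limma adjusted p = 0.000133). A second probe set rose by 0.99 (limma adjusted p = 0.000175), while the remaining one, dim in both groups, was at -0.09 and did not pass. With the mean of the 3 probe sets the log2 fold change was 0.75 (limma adjusted p = 0.000386). In the RefSeq annotation Galnt4 overlaps Poc1b, a centriole gene, so a signal from that gene cannot be told apart from its own.

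The widely expressed initiating enzymes did not pass. Galnt1 averaged 8.18 ± 0.12 in transgenic and 7.84 ± 0.20 in wild type prostates (SD, n = 4 each), and its groups did not overlap (log2 fold change 0.34 ± 0.12 SE; limma adjusted p = 0.105). Its second probe set was at 0.75 (limma adjusted p = 0.0617), and with the mean of both probe sets Galnt1 passed, at 0.54 (limma adjusted p = 0.00489). Galnt3, an enzyme of secretory epithelia, lay between 8.30 and 8.42 in transgenic prostates, against 7.85 to 8.24 in wild type prostates (limma adjusted p = 0.100), also without overlap. Its call appeared without wild type array 1, at 0.38 (limma adjusted p = 0.0445). Galnt2, broadly expressed, was at 0.05, with a 95% interval from -0.19 to 0.30. Galnt10, which like Galnt7 favours glycosylated peptides, was at 0.25 with an interval from -0.05 to 0.54, and Galnt11 at 0.38 (limma adjusted p = 0.164, and 0.0430 with array weights). Galnt6 was dim in both groups and Galnt16 was at 0.02.

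The enzymes that branch or extend the O-glycan core gave no call. Gcnt1, which makes the core 2 branch in many cells, lay at 3.53 ± 0.27 in transgenic and 3.41 ± 0.12 in wild type prostates (SD, n = 4 each). Gcnt3, the core 2 and core 4 enzyme of mucus-producing epithelia, lay at 3.29 ± 0.19 and 3.38 ± 0.21, and B3gnt3, which extends core 1, was dim as well. At these levels a change could be missed. C1galt1, which encodes the core 1 synthase that adds galactose to GalNAc and lies outside the name rule, rose by 0.44 ± 0.10 (SE; limma adjusted p = 0.0198), with 6.88 ± 0.12 in transgenic prostates and 6.45 ± 0.11 in wild type prostates (SD, n = 4 each). C1galt1 missed the threshold without transgenic array 2 or 3 or wild type array 2 (adjusted p up to 0.0753) and with the stromal score described below (adjusted p = 0.254). The gene of its chaperone, C1galt1c1, was at 0.40 and did not pass (limma adjusted p = 0.159).

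**Figure D2:**
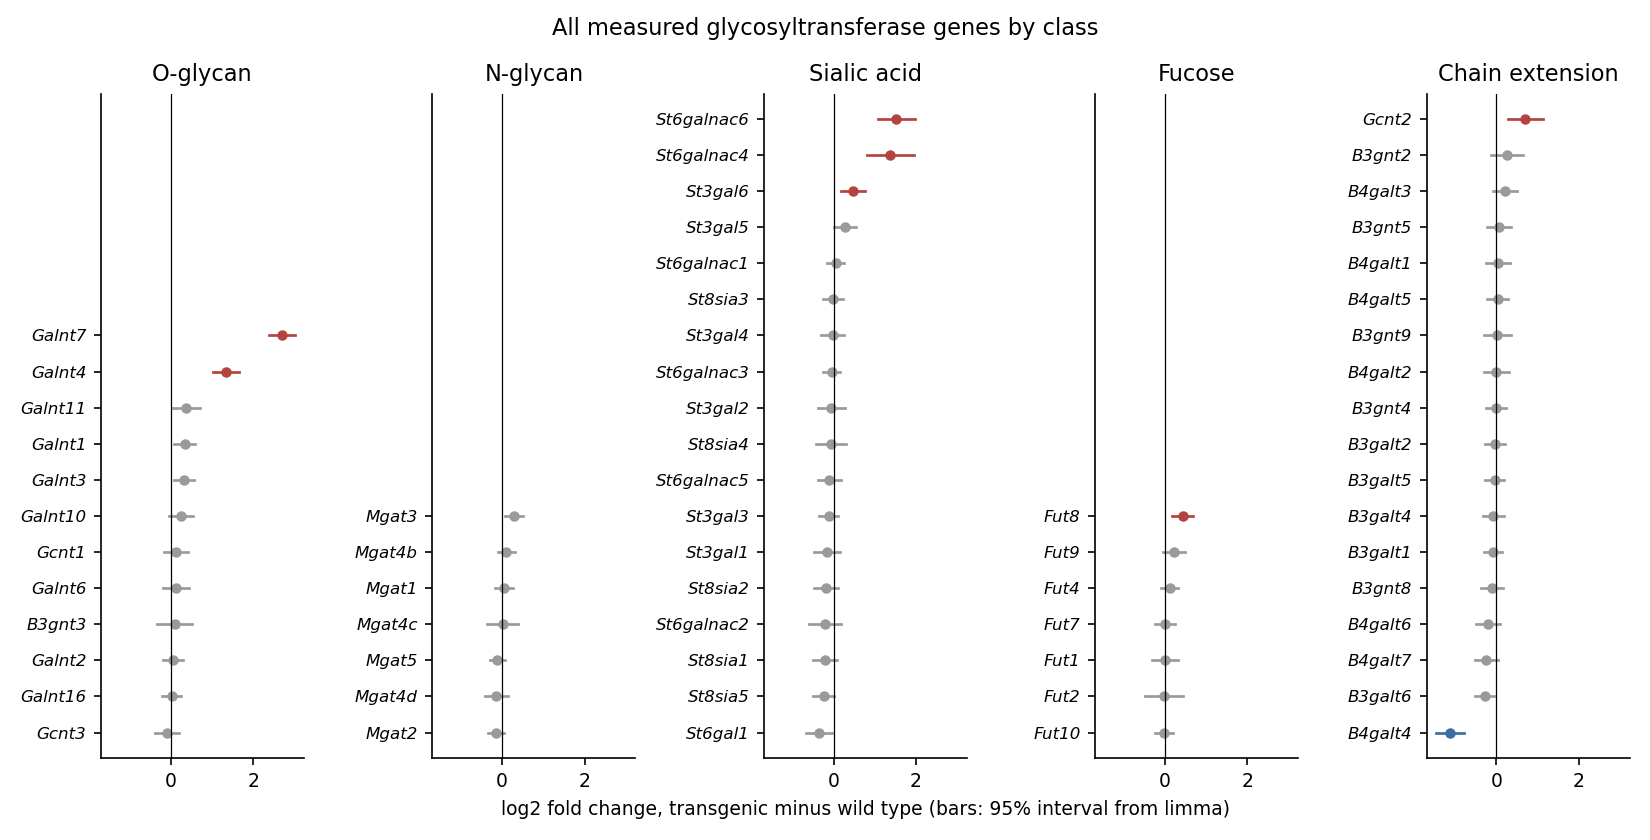
Log2 fold change, transgenic minus wild type (horizontal axis), of all 62 glycosyltransferase genes in 5 classes, with 95% intervals from limma. Red marks genes that rose, blue the gene that fell and grey those that did not pass. Galnt7 stands far to the right at 2.70, and the 7 N-glycan genes, all grey, lie between -0.14 and 0.29.

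Among 18 sialyltransferase genes 3 rose, none fell and 15 missed the threshold. Their median log2 fold change was -0.06. St6galnac6 rose most among them; its enzyme adds alpha-2,6-linked sialic acid to GalNAc or N-acetylglucosamine residues of gangliosides and related chains. Its values were 6.98, 7.10, 7.79 and 7.97 in transgenic prostates, against 5.87, 5.98, 5.79 and 6.14 in wild type prostates. The groups did not overlap, and transgenic arrays 3 and 4 lay well above transgenic arrays 1 and 2. The difference on the log2 scale was 1.52 ± 0.21 (SE), or 2.86-fold (limma adjusted p = 0.000646).

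St6galnac4 encodes the enzyme that adds a second, alpha-2,6-linked sialic acid to sialylated core 1 O-glycans. It was at 8.77, 8.30, 8.23 and 8.65 in transgenic prostates, against 7.30, 6.19, 7.48 and 7.48 in wild type prostates. Wild type array 2 lay more than 1 log2 unit below the other wild type arrays, but the groups did not overlap with or without it. The log2 fold change was 1.38 ± 0.26 (SE), or 2.60-fold (limma adjusted p = 0.00584). With the stromal score described below St6galnac4 was at 0.76 and did not pass (adjusted p = 0.187). The second St6galnac4 probe set, in which wild type array 2 does not stand apart, rose by 1.18 ± 0.12 (SE; limma adjusted p = 9.22e-05). In RefSeq, St6galnac4 and St6galnac6 are neighbours on chromosome 2 with no other protein-coding gene starting between them. The genes on either side, Pip5kl1 and Ak1, were at -0.09 and -0.17 and did not pass (limma adjusted p = 0.678 and 0.602). Pip5kl1 was dim in both groups, at 3.62 in transgenic and 3.71 in wild type prostates, so a change there may be missed.

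St3gal6, which encodes an enzyme that adds alpha-2,3-linked sialic acid to N-acetyllactosamine chains, rose by 0.47 ± 0.13 (SE; limma adjusted p = 0.0472). It was at 4.68, 4.39, 4.51 and 4.11 in transgenic prostates, against 4.02, 4.13, 3.85 and 3.83 in wild type prostates. The groups overlapped, all values were dim, and the rise is therefore approximate. The second St3gal6 probe set was at 0.42 and did not pass (limma adjusted p = 0.105). The call of St3gal6 was lost without any one of 6 arrays, all but transgenic array 4 and wild type array 2 (adjusted p up to 0.137).

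Other sialyltransferases gave no call. St6gal1, which caps N-glycans with alpha-2,6-linked sialic acid, was at 5.08 ± 0.06 in transgenic and 5.43 ± 0.32 in wild type prostates (SD, n = 4 each; limma adjusted p = 0.188). Its second probe set was at 0.06. St3gal5, the enzyme of the ganglioside GM3, was at 0.28 (limma adjusted p = 0.218), with its second probe set at 0.41 (limma adjusted p = 0.0582), and the mean of both St3gal5 probe sets passed, at 0.35 (limma adjusted p = 0.0452). St3gal1 and St3gal4, of O-glycan and N-acetyllactosamine capping, were dim, at -0.16 and -0.02. The closest relatives of the changed pair, St6galnac3 and St6galnac5, were dim in both groups, at -0.04 and -0.10. All 5 St8sia genes, which lengthen sialic acid chains, had negative log2 fold changes between -0.24 and -0.02, with none past the threshold in limma. Negative changes were also found for 7235 of all 12393 genes. None of the 5 St8sia genes had an unadjusted p under 0.05, against 2826 of all 12393 genes.

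The genes that make and move activated sialic acid stood beside these sialyltransferases. Among 19 genes of nucleotide sugar synthesis 4 rose, none fell and 15 missed the threshold (median 0.14). Gne, the rate-limiting enzyme of sialic acid synthesis, had 10.82, 11.21, 11.52 and 11.30 in transgenic prostates, against 9.93, 9.05, 9.87 and 9.65 in wild type prostates. That was a 3.00-fold higher level in transgenic prostates without overlap (log2 fold change 1.58 ± 0.20 SE; limma adjusted p = 0.000390). Cmas, which activates sialic acid to CMP-sialic acid, rose by 0.91 ± 0.14 (SE; limma adjusted p = 0.00129). Between these steps, Nans was at 0.29 and Nanp at 0.11, and neither passed (limma adjusted p = 0.114 and 0.791).

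The other genes of this list that rose were Uxs1, which makes UDP-xylose, by 0.84 (limma adjusted p = 0.000300) and Gfpt1, the first enzyme of the hexosamine pathway, by 0.76 (limma adjusted p = 0.0102). Gfpt1 was at 0.49 with the mean of its probe sets, and with the stromal score described below it did not pass (adjusted p = 0.126). Among 7 Golgi transporters of nucleotide sugars 3 rose, none fell and 4 missed the threshold (median 0.33). Slc35a1, the carrier of CMP-sialic acid, lay at 7.60 ± 0.31 in transgenic and 6.75 ± 0.25 in wild type prostates (SD, n = 4 each), a rise of 0.84 (limma adjusted p = 0.00816). Slc35a3, a carrier of UDP-N-acetylglucosamine, rose by 0.88 (limma adjusted p = 0.000411) and the UDP-galactose carrier gene Slc35a2 by 0.46 (limma adjusted p = 0.0299). Its adjusted p was 0.0844 after quantile and 0.0659 after cyclic loess normalization. Slc35a2 also missed the threshold without transgenic array 1, 2 or 4 or wild type array 2, 3 or 4 (adjusted p up to 0.0805), and with the stromal score (adjusted p = 0.317). With the mean of its probe sets the log2 fold change of Slc35a2 was 0.30.

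Of 7 fucosyltransferase genes 1 rose, 0 fell and 6 did not pass. Fut8, which adds the core fucose of N-glycans, was at 6.33, 6.60, 6.72 and 6.36 in transgenic prostates, against 5.96, 6.24, 6.04 and 6.05 in wild type prostates. The groups were apart by less than 0.1 log2 unit. The difference on the log2 scale was 0.43 ± 0.12 (SE), or 1.35-fold (limma adjusted p = 0.0400). The Fut8 call was lost without any one of 6 arrays, all but transgenic array 1 and wild type array 2 (adjusted p up to 0.127), and when the prior variance was fitted robustly as a trend on the mean (adjusted p = 0.0518). The other members, Fut1, Fut2, Fut4, Fut7, Fut9 and Fut10, were dim in both groups. Among them Fut2, the secretor enzyme that adds alpha-1,2-linked fucose in mucus, lay at 4.96, 4.99, 4.61 and 4.91 in transgenic prostates, against 4.68, 4.54, 4.70 and 5.65 in wild type prostates. Wild type array 4 stood above all others for Fut2. The gene that makes the donor GDP-fucose in its last step, Gfus, was at 0.21 and did not pass (limma adjusted p = 0.372).

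None of the 7 N-glycan genes passed in limma, and 1 of them, Mgat3, had an unadjusted p under 0.05. Of all 12393 genes, 2826 lay under that limit. Mgat1, which starts the conversion to complex N-glycans, was at 0.04 and Mgat2, which starts the next antenna, at -0.14. Mgat2 lay at 8.43 ± 0.06 in transgenic and 8.57 ± 0.08 in wild type prostates (SD, n = 4 each). Mgat3, which adds the bisecting N-acetylglucosamine, was at 4.52, 4.44, 4.44 and 4.54 in transgenic prostates, against 3.98, 4.25, 4.19 and 4.34 in wild type prostates. These levels were dim and did not overlap (log2 fold change 0.29 ± 0.10 SE; limma adjusted p = 0.102). Mgat3 passed once the arrays were normalized again, with an adjusted p of 0.0214 by quantiles and 0.0190 by cyclic loess, so that 1 of the 7 genes is then called. Mgat5, of the beta-1,6 branch, lay between 3.47 and 3.58 in transgenic prostates, against 3.63 to 3.75 in wild type prostates (limma adjusted p = 0.529), also dim and without overlap. Over the 7 genes the 95% intervals reached from -0.41 to 0.52 at the widest.

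Earlier steps of N-glycosylation held falls and no rises past the threshold. Among 18 genes of the lipid-linked precursor and the oligosaccharyltransferase 3 fell, none rose and 15 missed the threshold (median -0.11). Of the 18 log2 fold changes 13 were negative and 5 positive, the highest that of Tusc3 at 0.50 (limma adjusted p = 0.0724). Over all 12393 genes 7235 were negative and 5158 positive. Magt1, a subunit of the transferase, lay at 8.53 ± 0.21 in transgenic and 9.40 ± 0.22 in wild type prostates (SD, n = 4 each), a log2 fold change of -0.87 (limma adjusted p = 0.00190). Alg2 and Alg12, mannosyltransferases of the precursor, fell by 0.56 and 0.43 (limma adjusted p = 0.0103 and 0.0178). With the mean of their probe sets neither passed, at -0.33 (adjusted p = 0.0525) and -0.25 (adjusted p = 0.0850). Alg12 also missed the threshold without transgenic array 2 or 4 or wild type array 3 (adjusted p up to 0.0690).

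Of 7 genes of N-glycan trimming, 2 fell and 5 did not pass. Man1a, a Golgi mannosidase that acts before the MGAT enzymes, was at 9.48, 9.52, 9.31 and 9.56 in transgenic prostates, against 10.53, 10.67, 10.29 and 10.57 in wild type prostates. All transgenic arrays lay lower, with a log2 fold change of -1.05 ± 0.11 (SE; limma adjusted p = 9.70e-05). The glucosidase gene Mogs fell by 0.40 (limma adjusted p = 0.0470), a call that held without wild type array 4 and was lost when any of the other 7 arrays was left out (adjusted p up to 0.123).

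Among 18 chain extension genes 1 rose, 1 fell and 16 missed the threshold (median -0.02). B4galt4, which encodes an enzyme that adds beta-1,4-linked galactose to N-acetylglucosamine, with a preference for sulfated ends, was at 5.07, 4.66, 5.001 and 4.54 in transgenic prostates, against 5.84, 6.20, 5.64 and 6.10 in wild type prostates. The groups did not overlap, and the log2 fold change was -1.13 ± 0.16 (SE), a level 2.19-fold higher in wild type (limma adjusted p = 0.000723), and the transgenic mean was dim, so this fall is approximate. The other beta-1,4-galactosyltransferases gave no call. B4galt1, the main enzyme of this step in many tissues, lay at 8.59 ± 0.25 in transgenic and 8.55 ± 0.12 in wild type prostates (SD, n = 4 each), and B4galt3 was at 0.21 (limma adjusted p = 0.439). B4galt6, a lactosylceramide synthase, was at -0.21 with its 3 other probe sets between -0.22 and 0.10. B4galt2 and B4galt5 were dim, and B4galt7, of the linker of proteoglycans, was at -0.25 (limma adjusted p = 0.298).

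Gcnt2, which encodes the enzyme that turns linear chains into branched I antigen chains, was at 5.55, 5.78, 5.78 and 5.77 in transgenic prostates, against 5.53, 5.29, 4.59 and 4.66 in wild type prostates. Wild type arrays 1 and 2 came close to the transgenic values and wild type arrays 3 and 4 lay far below. On the log2 scale the rise was 0.70 ± 0.19 (SE; limma adjusted p = 0.0416), and the wild type mean was dim, so the rise is approximate. The other 6 Gcnt2 probe sets were dim in both groups, between -0.14 and 0.17, and none passed. With the mean of all 7 the log2 fold change was 0.10 (limma adjusted p = 0.494). The Gcnt2 call was lost without transgenic array 2, 3 or 4 or wild type array 3 or 4 (adjusted p up to 0.123).

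**Figure D3:**
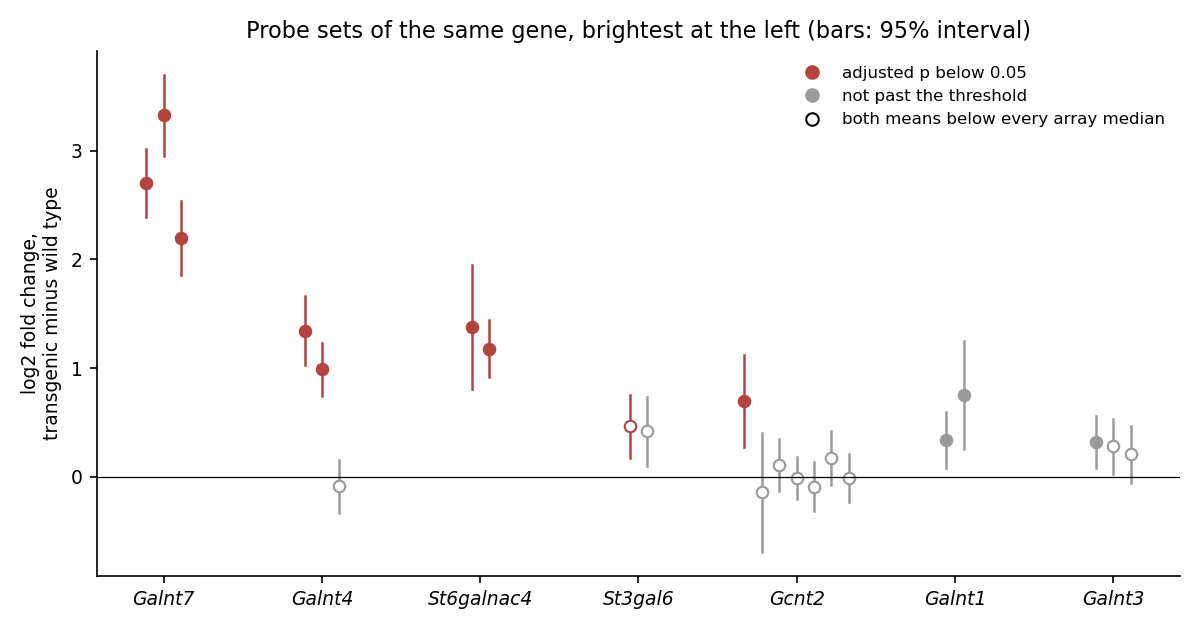
Log2 fold change, transgenic minus wild type (vertical axis), of each probe set of 7 genes, ordered from the highest mean level at the left, with 95% intervals. Red marks probe sets past the threshold, and open points had both group means below every array median. All Galnt7 and St6galnac4 probe sets rose, while 1 of 7 Gcnt2 probe sets did.

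B3galt6, which adds the second galactose of the proteoglycan linker, lay between 5.78 and 6.12 in transgenic prostates, against 6.15 to 6.27 in wild type prostates. The groups did not overlap but the test was not passed (log2 fold change -0.28 ± 0.11 SE; limma adjusted p = 0.136). With array weights B3galt6 passed (adjusted p = 0.0452), while with the mean of its probe sets it was at -0.09. The other 4 B3galt genes were dim in both groups. Of 6 B3gnt genes, B3gnt2 alone was not dim, at 0.26 (limma adjusted p = 0.471). In all, the groups did not overlap for 9 members that were higher and 3 that were lower, where 8.09% and 8.2% of all genes did so.

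Unequal change between enzymes with competing or alternative reactions was examined within arrays for 7 pairs. The difference Mgat3 minus Mgat5 was larger by 0.41 in transgenic prostates (two-sided exact permutation p = 0.0286, the smallest that 4 against 4 arrays allow), and 0.2 after adjustment over the 7 pairs. Both genes are dim. St6gal1 minus St3gal4 moved by -0.32 (exact permutation p = 0.0571, adjusted 0.2), and by -0.12 with the mean of all probe sets of each gene (exact permutation p = 0.257). For Gcnt1 minus St3gal1, Gcnt3 minus Gcnt1, Fut2 minus Fut1, Fut8 minus Mgat3 and Galnt3 minus Galnt1 the differences were 0.29, -0.22, -0.03, 0.13 and -0.02 (exact permutation p from 0.2 to 1). With the mean of all probe sets Galnt3 minus Galnt1 was at -0.28 (exact permutation p = 0.0571, adjusted 0.2). No pair passed after adjustment, which does not show that the enzymes of a pair changed alike. A pair alone at the smallest possible p is at 0.2 once adjusted, so a single pair could not pass.

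Among enzymes related to the members but outside the name rule, B4galnt2 rose most. It makes the Sda antigen by adding GalNAc to sialylated chains, and in mice it is known as an enzyme of the intestinal epithelium. B4galnt2 was at 11.91, 11.59, 11.52 and 11.83 in transgenic prostates, against 9.41, 8.99, 9.74 and 10.07 in wild type prostates. All transgenic arrays lay far above the wild type ones, 4.47-fold on average (log2 fold change 2.16 ± 0.20 SE; limma adjusted p = 4.08e-05). Of the 9 genes of that list 1 rose, 1 fell and 7 did not pass. The one that fell, B3galnt2, of the O-mannose glycans of dystroglycan, was at -0.93 (limma adjusted p = 0.0161), a call that was lost without wild type array 3 (adjusted p = 0.0572), with its probe sets averaged (adjusted p = 0.0565) and with the stromal score (adjusted p = 0.0894). Pomgnt1, of the same glycans, fell by 0.72 (limma adjusted p = 0.00270), and with C1galt1 it made up the 1 lower and 1 higher of 13 genes for core 1 and other O-linked sugars.

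Most genes listed for enzymes that remove sugars, many of them lysosomal, were higher. Among 11 genes of sialidases, fucosidases and other glycan hydrolases 8 rose, 1 fell and 2 missed the threshold (median 0.79). Hexa, a hexosaminidase subunit, lay at 10.32 ± 0.26 in transgenic and 8.29 ± 0.23 in wild type prostates (SD, n = 4 each), a rise of 2.03 (limma adjusted p = 9.19e-06). Neu1, the lysosomal sialidase, was at 8.76, 8.67, 8.64 and 8.79 in transgenic prostates, against 7.37, 6.95, 7.17 and 7.22 in wild type prostates, with no overlap. It rose by 1.54 ± 0.11 (SE; limma adjusted p = 5.96e-06), and by 0.64 with the mean of its probe sets. Manba, a beta-mannosidase, rose by 1.06 (limma adjusted p = 0.00168), while Neu2, a cytosolic sialidase that was dim in both groups, fell by 0.65 (limma adjusted p = 0.00174).

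Genes of O-glycan carriers and of the Golgi itself gave few calls. Of 16 genes of mucins and mucin-like carriers 0 rose, 1 fell and 15 did not pass, and 12 were dim in both groups. The one that fell was Pdpn, podoplanin, by 1.01 (limma adjusted p = 0.00365). With the stromal score Pdpn was at -0.54 and did not pass (adjusted p = 0.107). Of 17 genes of Golgi structure and the COG complex, a tether for Golgi vesicles, 1 rose, 1 fell and 15 did not pass. Golm1, a Golgi membrane protein of epithelial cells, rose by 1.24 (limma adjusted p = 0.00182; 0.0517 with the stromal score) and the tether gene Uso1 fell by 0.63 (limma adjusted p = 0.0105). None of 8 sulfotransferase genes passed in limma, none had an unadjusted p under 0.05, and 7 were dim. Of all 12393 genes, 2826 had an unadjusted p under 0.05.

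**Figure D4:**
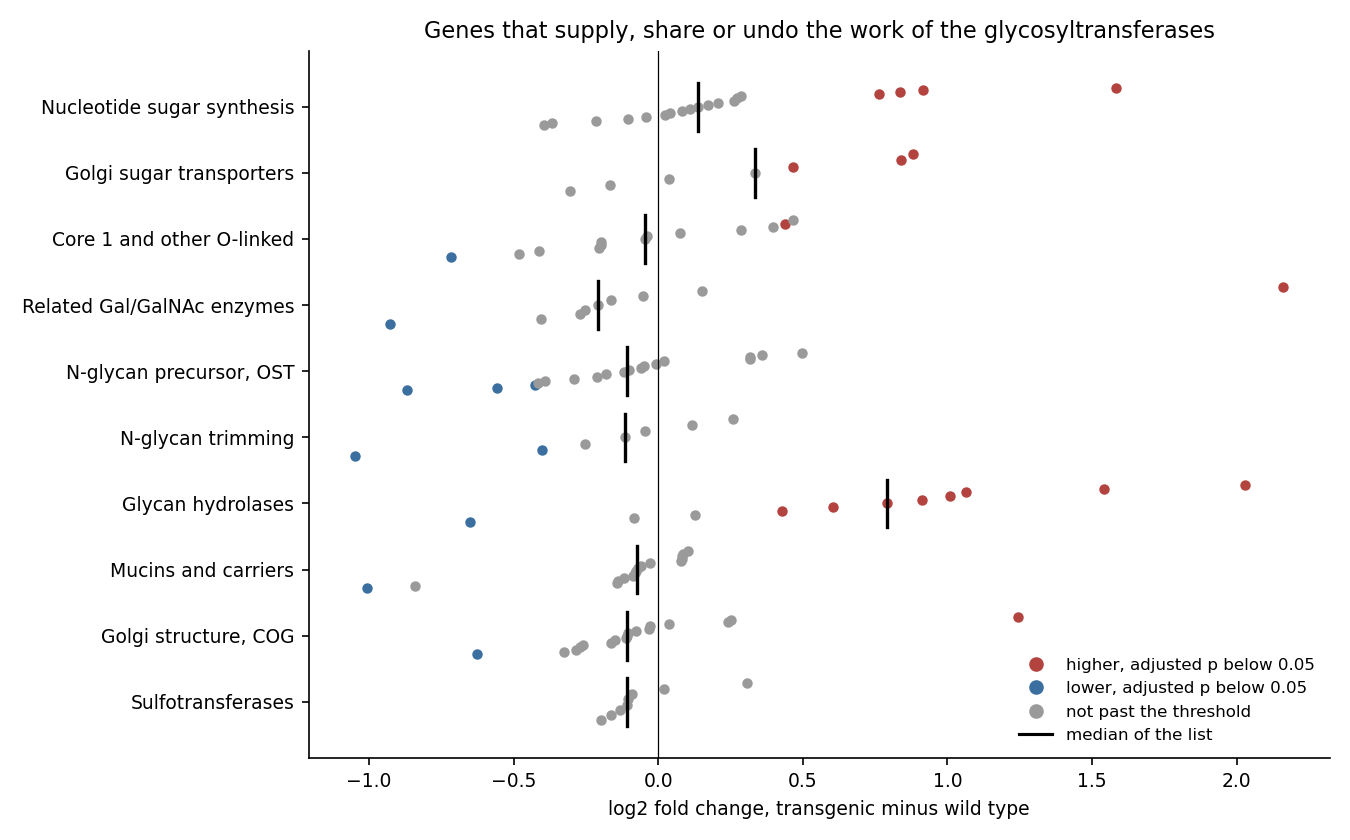
Log2 fold change, transgenic minus wild type (horizontal axis), of single genes in 10 lists of related function, with black bars at list medians. Red and blue mark genes past the threshold. Glycan hydrolases lie furthest to the right, with a median of 0.79 and 8 of 11 genes higher, and sugar transporters next, with 0.33.

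Markers of some cell types moved with the groups. Of 11 luminal epithelial markers 7 rose and 0 fell, and the mean level of the list lay between 10.40 and 10.45 in transgenic prostates, against 9.74 to 9.92 in wild type prostates. Of 10 basal markers 5 fell, with list levels of 5.80 to 5.96 in transgenic and 6.28 to 6.43 in wild type prostates. Of 10 smooth muscle markers 2 fell, with 7.73 to 8.06 in transgenic and 8.05 to 8.76 in wild type prostates. Of 10 fibroblast markers 2 fell, with 6.33 to 6.54 in transgenic and 6.40 to 7.72 in wild type prostates. Endothelial and lymphocyte markers gave no call in limma. An unadjusted p under 0.05 was found for 0 of 10 and 0 of 10, against 2826 of all 12393 genes. Of these markers, 7 endothelial and 8 lymphocyte ones were dim in both groups, so a change may be missed. Among 11 macrophage markers 1 rose, Mrc1 by 2.27, while Cd163, Cd68 and Itgam were dim in both groups. Of the 11 log2 fold changes 3 were positive and 8 negative, with a median of -0.21. The mean level of the macrophage list lay between 5.85 and 5.97 in transgenic prostates, against 5.41 to 6.34 in wild type prostates. In bulk tissue fewer cells of a type and less RNA per cell cannot be told apart, and the part of the luminal and basal shifts in the results above was not tested.

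The stromal score, the mean centred level of the smooth muscle and fibroblast markers, was -0.27 ± 0.10 in transgenic and 0.27 ± 0.42 in wild type prostates (SD, n = 4 each; exact permutation p = 0.0857). With the score as a covariate 3 members rose, Galnt7, Galnt4 and St6galnac6, and B4galt4 fell. Besides St6galnac4, the calls of Fut8 (adjusted p = 0.0702), Gcnt2 (adjusted p = 0.307) and St3gal6 (adjusted p = 0.267) were then lost, and among related genes those of Mogs (adjusted p = 0.0880) and Alg12 (adjusted p = 0.0832). Gne and Cmas passed with the score, and Slc35a1 was at 0.67 and did not (adjusted p = 0.183). The 3 prime minus 5 prime difference of the control probe sets, which reads RNA integrity, was 1.12 ± 0.19 in transgenic and 1.47 ± 0.09 in wild type prostates (SD, n = 4 each; exact permutation p = 0.0571), and its part in the results was not tested.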

How the data were processed

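The authors deposited 1 column of log2 values per array. The submitters' processing notes name RMA and give no version. RMA removes a difference that affects all transcripts alike. RNA was purified with Trizol and an RNeasy column and labelled with biotin for Affymetrix arrays, per the labels' protocols. Of 22690 probe sets, 64 controls were left out of the tests. In the platform annotation 20380 probe sets had 1 symbol, 691 several and 1555 none, and symbols were updated through RefSeq of GRCm38.p6.

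Transgenic and wild type arrays were compared over 22626 probe sets by the two-sided moderated test of limma 3.58.1 (R 4.3.3), with lmFit and eBayes. Pairs of genes were tested by exact permutation over the 70 assignments of arrays. The number of arrays limits the precision. The fit was checked on simulated data. The members and lists were chosen with earlier results of these data known.

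Named members are those past the threshold or without overlap, those of the pairs, and in each class the one with the highest mean and, where none passed, the smallest p. Pathway lists give up to 3 members past the threshold. Others named were chosen after their values were seen. Mgat4a, of an eighth pair, is not analysed here. Alternatives were other normalizations, filters, priors, weights, probe set rules, a replicate block, a stromal covariate and leaving out each array.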

Additional observations from a re-analysis of the deposited data

Results flagged for a closer look

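In 6 places 1 array of a group lay far from its 3 fellows, with a gap to them past Dixon's critical value for 4 samples. Of 88 groups of 4 arrays examined, chance alone places about 1 in 20 past this limit. St6galnac4 was at 6.19 in wild type array 2, against 7.30 to 7.48 in the other wild type arrays. Gcnt2 was at 5.55 in transgenic array 1, against 5.77 to 5.78. Mgat5 was at 3.47 in transgenic array 1, against 3.57 to 3.58, and Cmas at 10.54 in the same array, against 10.95 or more. Fut2 was at 5.65 in wild type array 4, against 4.54 to 4.70. Chst1, a sulfotransferase gene, was at 3.83 in wild type array 1, against 4.32 to 4.34.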

How the results depend on the processing

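Of the 8 members past the threshold, Galnt7, Galnt4, St6galnac6 and B4galt4 passed under all alternatives that were fitted, and none of the 8 changed sign. St6galnac6 and B4galt4 had 1 probe set each, so averaging probe sets could not change their log2 fold change. St6galnac4 was lost only with the stromal covariate, and Fut8, Gcnt2 and St3gal6 were each lost under 9 of the fitted alternatives. Fut8, Gcnt2 and St3gal6 were also lost at an adjusted p below 0.01, and Fut8 and St3gal6 with a 1.5-fold limit. The 7 higher members became 4 with the replicate block, 3 with the stromal covariate and 4 at an adjusted p below 0.01, and 4 to 7 when single arrays were left out. The 1 lower member became 2 with array weights, through B3galt6, so chain extension enzymes lower became 2 as well. N-glycan enzymes higher became 1 under quantile and cyclic loess normalization. Chain extension enzymes higher became 0 under cyclic loess, with the mean of probe sets, the replicate block, the stromal covariate and the threshold of 0.01, and ranged from 0 to 1 without single arrays. Fucose enzymes higher became 0 with a trend and robust prior, the replicate block, the stromal covariate, the threshold of 0.01 and a 1.5-fold limit, and ranged from 0 to 1 without single arrays. Sialic acid enzymes higher became 1 with the stromal covariate. Some counts were larger: the mean of probe sets gave 8 members higher, with 3 O-glycan and 4 sialic acid enzymes, array weights gave 8 with 3 O-glycan enzymes, and without wild type array 1 there were 3 O-glycan enzymes. The cause of these changes was not tested. Replicate numbers did not pair the arrays: deviations of same-numbered arrays correlated at -0.31, 0.24, -0.20 and 0.33, and 2 of 8 arrays correlated best with their own number. Over all genes the block gave 599 higher and 486 lower, against 742 and 617 without it, and the stromal covariate 331 and 266. Array weights gave 1087 and 1068. Lower genes numbered 359, 378, 379 and 397 without transgenic arrays 2, 3 and 4 and wild type array 3, and higher genes 494 without transgenic array 2. None of the 7 pairs passed after adjustment under any alternative. With 1 array fewer or within replicate numbers the test cannot pass, and with all 8 arrays 1 pair alone cannot pass either. Detection calls were not used here, and for the 34 members dim in both groups a change may be missed.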

Other observations

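The measured neighbours of the other changed members were read as values. Hmgb2, next to Galnt7 on chromosome 8, was at 0.39 and did not pass (limma adjusted p = 0.102). Dusp6, the gene after Galnt4 on chromosome 10, which encodes a phosphatase of ERK, lay at 4.50 ± 0.05 in transgenic and 5.33 ± 0.14 in wild type prostates (SD, n = 4 each), a fall of 0.83 (limma adjusted p = 0.000243) where Galnt4 rose. Both Dusp6 means were dim, so this fall is approximate. Max, before Fut8, was at 0.58 and did not pass (limma adjusted p = 0.169), and Dcbld2, which overlaps St3gal6, was at -0.04 (limma adjusted p = 0.936). Arhgap31, before B4galt4, was at -0.15, and Tfap2a and Pak1ip1, on either side of Gcnt2, were at -0.03 and 0.04, with none of these 3 past the threshold in limma. Dcbld2 and Arhgap31 were dim in both groups, so a change in them may be missed.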
